A study of Homo sapiens with 12 samples.

Results

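Dexamethasone, a synthetic glucocorticoid, raised a set of transcripts within 6 h whose response was no larger, or only slightly larger, at 24 h. These early-plateau probe sets are the subject here. They were 59 of the 54675 probe sets on the array, and 48 of them carried 1 gene symbol, for 33 genes. The remaining 11 were not listed with a gene and are given by their identifiers. A probe set belonged when its mean log2 value with dexamethasone exceeded that with ethanol by at least 0.8 at 6 h and by at least 0.5 at 24 h, when the 24 h difference exceeded the 6 h difference by at most 0.3, when its 6 h dexamethasone mean was at least 6, and when the 6 h difference was above 0 in each of the 3 experiments. The glucocorticoid receptor gene NR3C1 was left out by design (5 probe sets, of which 4 met the thresholds).

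The cells were CCRF-CEM-C7H2, a glucocorticoid-sensitive subline of a human T-cell acute lymphoblastic leukemia line, and the study asked which transcripts that may hold microRNAs respond to glucocorticoid. The groups were 100 nM dexamethasone for 6 h, 0.1% ethanol (the carrier) for 6 h, 100 nM dexamethasone for 24 h and 0.1% ethanol for 24 h, with 3 arrays in each, 1 per independent experiment of this 1 line. Ethanol alone, the solvent of the hormone, is the only comparison group at each time. Array values below are log2 expression, listed for experiments 0, 1 and 3 at 6 h and for experiments 1, 2 and 3 at 24 h. Differences are dexamethasone minus ethanol on that scale, with the standard error of the linear model (3 arrays per group). The probe sets were chosen by the mean differences at both times, the 6 h dexamethasone level and the 6 h difference in each experiment, over all 12 arrays, so these values are described without a test.

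Of 12 T-cell marker genes 11 were detected (all but CD2), among them CD3D, CD3E and CD7, while none of 3 myeloid markers and not the 1 erythroid marker on the array was. The B-cell receptor genes CD79A and CD79B and the stromal COL1A1 were detected as well. Array medians lay between 3.01 and 3.12, between 41.2 and 42.0% of the non-control probe sets reached a log2 of 4 per array, and arrays of a group correlated at an r of 0.997 or more. The labels' array file names carry a code that differs between the 6 h dexamethasone arrays, the 6 h ethanol arrays and the 24 h arrays, which share 1. What the code marks is not stated. At 6 h anything tied to it cannot be told apart from the treatment, whereas at 24 h both treatments share it. Added poly-A control transcripts, which should read alike on every array, averaged 0.47 higher with dexamethasone than with ethanol at 6 h and 0.34 higher at 24 h. In bulk RNA, fewer cells of a kind and less RNA per cell cannot be told apart.

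Glucocorticoids act through a receptor of the nuclear receptor family, which moves into the nucleus when it binds hormone and then raises or lowers transcription of its target genes. A gene whose transcription is raised approaches a new level at a pace set by how fast its RNA decays, so transcripts of short life settle early and stable ones late. In lymphoid leukemia cells the early targets include brakes on signalling, transcription factors and metabolic regulators, and cell death follows much later. A microRNA inside a gene on the same strand is often cut from that gene's primary transcript, which is why host genes were of interest to the study.

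By the RefSeq gene and microRNA tables (GRCh38.p14), 5 of the 33 genes hold microRNAs on their own strand. The mature sequences are shown because the study was about such hosts, with the seed (bases 2 to 8) in capitals.
RBMS1 host, hsa-miR-4785, chr2:160407819-160407839, minus strand: aGAGUCGGcgacgccgccagc
USP20 host, hsa-miR-6855-5p, chr9:129869610-129869634, plus strand: uUGGGGUUuggggugcagacauugc
USP20 host, hsa-miR-6855-3p, chr9:129869650-129869671, plus strand: aGACUGACcuucaaccccacag
CAMK1D host, hsa-miR-4480, chr10:12578796-12578816, plus strand: aGCCAAGUggaaguuacuuua
STIM1 host, hsa-miR-4687-5p, chr11:3856073-3856094, plus strand: cAGCCCUCcucccgcacccaaa
STIM1 host, hsa-miR-4687-3p, chr11:3856113-3856133, plus strand: uGGCUGUUggagggggcaggc
LDLRAD4 host, hsa-miR-5190, chr18:13459993-13460013, plus strand: cCAGUGACugagcuggagcca
No seed occurred more than once among these sequences. The probe sets read the host transcripts, and the levels of the mature microRNAs were not measured.

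Promoter sequences, from 250 bases before to 50 after the start, were matched for 29 of the 33 genes in the RefSeq table. Each motif was searched on both strands. The full palindromic response element of the glucocorticoid receptor, inverted copies of its hexamer with 3 bases between them, was in 0 of the 29, which allows a share of up to 11.9% (exact 95% interval), against 1 of 27305 promoters in the whole table. A looser form, which fixes fewer of the letters, was also in 0 of 29, against 0.388% of all promoters. A missing match says only that these letters are not in this window. CACGTG, the E-box of MYC and its relatives, was in 3 promoters (ITGA6, FAM13A and TMEM243), or 10.3% against 7.43% of all. CCAAT was in 12 (41.4% against 35.7%) and TATAAA in 2 (6.90% against 11.95%). The AP-1 site TGANTCA was in 0, against 7.76% of all, and the core of the interferon-stimulated response element was in 1, that of GLUL (3.45% against 3.65%). The early-plateau promoters had a median GC content of 69.3% and a median of 29 CpG dinucleotides, against 65.7% and 28 for genes induced early and further up at 24 h, and 58.3% and 14 for all promoters. The 3 promoters below are examples from the 12 genes with more than 1 early-plateau probe set, picked after the matches were seen to show both motifs, and the capitals mark CACGTG in ITGA6 and CCAAT, or ATTGG where it lies on the opposite strand, in the others.
ITGA6, chr2:172427086-172427385, plus strand: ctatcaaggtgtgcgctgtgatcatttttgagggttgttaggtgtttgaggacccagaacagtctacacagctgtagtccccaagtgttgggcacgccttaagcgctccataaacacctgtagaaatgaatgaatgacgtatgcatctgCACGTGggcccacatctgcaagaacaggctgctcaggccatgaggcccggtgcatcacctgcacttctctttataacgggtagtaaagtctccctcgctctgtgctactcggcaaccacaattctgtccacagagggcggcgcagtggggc
WFS1, chr4:6269600-6269899, plus strand: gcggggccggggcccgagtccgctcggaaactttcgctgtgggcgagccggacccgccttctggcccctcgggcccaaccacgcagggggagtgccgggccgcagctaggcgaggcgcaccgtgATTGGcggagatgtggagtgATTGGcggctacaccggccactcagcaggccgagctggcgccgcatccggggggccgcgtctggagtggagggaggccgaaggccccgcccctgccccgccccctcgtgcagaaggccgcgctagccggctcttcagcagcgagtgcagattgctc
CASTOR1, chr22:30289456-30289755, minus strand: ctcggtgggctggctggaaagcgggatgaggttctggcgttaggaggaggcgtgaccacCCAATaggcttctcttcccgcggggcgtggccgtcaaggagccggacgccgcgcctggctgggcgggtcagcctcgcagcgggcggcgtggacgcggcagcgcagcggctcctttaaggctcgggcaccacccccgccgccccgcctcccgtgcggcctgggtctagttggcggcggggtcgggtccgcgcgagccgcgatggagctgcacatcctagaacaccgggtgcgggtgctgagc
The ITGA6 promoter is the only 1 of the 3 with a TATAAA match, on the opposite strand at -32 from the start. The WFS1 promoter held 2 CCAAT matches, at -126 and -106 from its start.

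Over the 59 probe sets the median difference was 1.28 at 6 h (0.80 to 6.35) and 1.25 at 24 h (0.59 to 6.49), beside a median of -0.01 at either time over all 23265 tested probe sets. Over the 33 genes, with the brightest early-plateau probe set for each, the medians were 1.19 at 6 h and 1.22 at 24 h. All 59 passed the filter on low values, which the required 6 h dexamethasone mean of at least 6 largely ensures. Of them, 56 had a log2 of at least 4 on all 12 arrays. The 24 h response was below the 6 h response in 25 probe sets and above it in 34, and in 33 the responses differed by no more than 1 standard error of that difference. The standard errors come from the fit without the experiment block. Same-numbered arrays deviated together, so these errors can be too wide and the count of 33 too high. All dexamethasone arrays lay above all ethanol arrays in 57 probe sets at 6 h (9.78% of all tested probe sets did) and in 56 at 24 h (29.2% of all tested), a separation the rule itself favours. At least a doubling was seen in 41 probe sets at 6 h, in 47 at 24 h and in 38 at both times. At 6 h, 2.66% of all tested probe sets were called higher and 3.54% lower by limma (adjusted p under 0.05). At 24 h the shares were 22.8% and 24.5%. On the deposited scale the whole table thus moved far more at 24 h than at 6 h, while these probe sets by choice did not. With arrays scaled to the poly-A controls the median differences were 0.81 at 6 h and 0.92 at 24 h, and 23 of the 59 probe sets, of 14 genes, still met the rule. On that scale the 24 h median was the higher of the 2. Over all tested probe sets that scale gave 1.18% called higher and 65.0% lower at 6 h, and 9.57% and 43.3% at 24 h. There more were called at 6 h than at 24 h. Which scale holds was not tested.

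**Figure D1:**
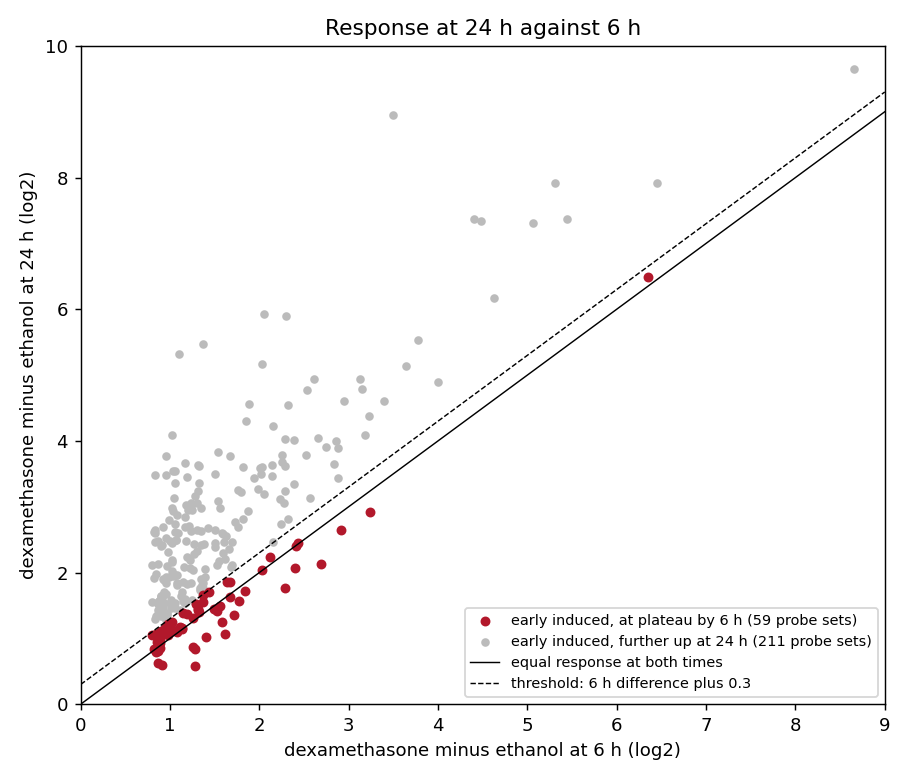
Dexamethasone minus ethanol at 24 h (vertical axis, log2) against that at 6 h (horizontal axis, log2), 1 point per probe set, with the 59 early-plateau probe sets in red and the 211 probe sets that met the other conditions but were further up at 24 h in grey. The red points follow the line of equal response up to TRIB1 at 6.35 and 6.49, and the dashed line is the threshold of the rule.

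Among the signalling genes (8 genes, median difference 1.06 at 6 h and 1.23 at 24 h), TRIB1 moved most. It encodes a pseudokinase that brings other proteins to a ubiquitin ligase. TRIB1 read 9.36, 8.46 and 8.09 after 6 h of dexamethasone, against 2.10, 2.08 and 2.68 with ethanol. At 24 h it read 8.60, 8.95 and 8.98 with dexamethasone, against 2.10, 2.31 and 2.67 with ethanol. The ethanol arrays all lay in the background range and the lowest dexamethasone array stood far above them. The measured difference was 6.35 at 6 h and 6.49 at 24 h (SE 0.29). Since ethanol was below the detection level of 4 on all arrays, the difference against that level, at least 4.64 at 6 h and at least 4.85 at 24 h, is what the data bound. The 3 dexamethasone arrays at 6 h spread more widely than those at 24 h. TRIB1 probe sets 235641_at and 239818_x_at did not pass the filter on low values, with group means from 2.03 to 2.10. The TRIB1 response thus rests on 1 probe set.

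UBASH3B encodes a phosphatase that damps T-cell receptor signalling. It read 8.56, 8.09 and 7.57 after 6 h of dexamethasone, against 5.69, 5.75 and 5.49 with ethanol, and 8.72, 8.90 and 8.61 at 24 h, against 6.46, 6.22 and 6.21 with ethanol. The groups did not overlap, and the responses were nearly equal at 2.43 and 2.45 (SE 0.20). Both treatments were higher at 24 h than at 6 h, by 0.67 with dexamethasone and 0.66 with ethanol, so the equal response lay on a higher base.

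CASTOR1 encodes the arginine sensor that restrains mTORC1, the growth-promoting kinase complex. Its brighter probe set read 9.25, 8.91 and 8.66 after 6 h of dexamethasone, against 7.89, 7.59 and 7.46 with ethanol, and 9.12, 9.16 and 9.11 at 24 h, against 7.76, 7.56 and 7.52 with ethanol. The 24 h dexamethasone arrays fell within the range of the 6 h ones and were tighter. The difference was 1.29 at 6 h and 1.52 at 24 h (SE 0.15), and the second probe set gave 1.64 and 1.86 (SE 0.21).

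DUSP6, a phosphatase that switches off ERK kinases, read 9.85, 9.38 and 9.18 after 6 h of dexamethasone, against 8.86, 8.31 and 7.82 with ethanol, and 9.45, 9.14 and 8.57 at 24 h, against 7.90, 7.91 and 7.19 with ethanol. Arrays of experiment 3 were the lowest of each group, the groups did not overlap, and the change of level, 24 h minus 6 h, was -0.42 with dexamethasone and -0.67 with ethanol. The response was 1.14 at 6 h and 1.39 at 24 h (SE 0.31). CAMK1D, a calcium- and calmodulin-dependent kinase and 1 of the microRNA hosts, read 9.29, 9.11 and 9.15 after 6 h of dexamethasone, against 8.19, 8.24 and 8.18 with ethanol, and 9.15, 9.28 and 9.05 at 24 h, against 7.90, 8.32 and 8.10 with ethanol. Its groups stood apart at both times, with responses of 0.98 and 1.05 (SE 0.11). Its dimmer probe set showed 1.67 at 6 h and 1.62 at 24 h (SE 0.22).

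LDLRAD4, an inhibitor of TGF-beta signalling, differed by 0.88 at 6 h and 1.04 at 24 h, and AIDA, known in zebrafish as a partner of axin that antagonizes JNK signalling, by 0.84 and 1.07. For FGFR1, a receptor tyrosine kinase for fibroblast growth factors, the differences were 0.86 and 0.81 (SE 0.26).

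The transcription and chromatin genes were 4, with medians of 1.22 at 6 h and 1.34 at 24 h. KLF13, a zinc-finger factor that drives late chemokine transcription in T cells, read 9.57, 9.77 and 9.95 after 6 h of dexamethasone, against 7.73, 7.69 and 7.79 with ethanol, and 10.04, 9.75 and 9.76 at 24 h, against 7.81, 7.80 and 7.83 with ethanol. Ethanol arrays were nearly constant, the dexamethasone arrays of the 2 times overlapped, and the fold change was 4.08 at 6 h and 4.09 at 24 h. Its log2 response was 2.03 and 2.03 (SE 0.11). ASXL2, a partner of the chromatin deubiquitinase BAP1, differed by 1.19 and 1.38. PATZ1, a zinc-finger regulator with a BTB domain, differed by 0.89 and 1.10, and the zinc-finger gene ZNF595 by 1.25 and 1.31.

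Of the RNA-binding proteins, ZFP36L2 marks messages with AU-rich elements for decay, CELF2 regulates splicing in T cells and RBMS1 binds single-stranded nucleic acids. Their medians were 0.94 at 6 h and 1.16 at 24 h. The brightest ZFP36L2 probe set read 13.17, 13.32 and 13.44 after 6 h of dexamethasone, against 12.27, 12.14 and 12.57 with ethanol, and 13.60, 13.46 and 13.51 at 24 h, against 12.20, 12.24 and 12.46 with ethanol. All arrays with dexamethasone stood above all with ethanol, and its response was 0.98 at 6 h and 1.22 at 24 h (SE 0.12). The other early-plateau probe sets of ZFP36L2 gave larger responses, 1.56 and 1.49 at 6 h and 1.49 and 1.45 at 24 h.

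CELF2, by its brightest probe set, read 13.80, 13.65 and 13.68 after 6 h of dexamethasone, against 12.73, 12.85 and 12.72 with ethanol, and 13.83, 13.71 and 13.84 at 24 h, against 12.50, 12.71 and 12.69 with ethanol. Groups were tight and apart, with responses of 0.94 and 1.16 (SE 0.08). A second probe set instead showed a smaller response at 24 h, 0.62 against 0.87 at 6 h (SE 0.08), with all 24 h dexamethasone arrays below all 6 h ones. RBMS1 read 9.86, 10.17 and 10.03 after 6 h of dexamethasone, against 9.08, 9.20 and 9.12 with ethanol, and 9.90, 9.97 and 10.03 at 24 h, against 9.02, 9.11 and 9.21 with ethanol. Its groups did not overlap, and its 3 early-plateau probe sets lay between 0.82 and 0.89 at 6 h and between 0.83 and 0.94 at 24 h. Probe sets of 1 gene can share probes, so these 3 are not independent readings.

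In the endoplasmic reticulum and calcium group (median 1.26 at 6 h and 1.02 at 24 h), WFS1 encodes wolframin, a membrane protein of that organelle. Its brighter probe set read 10.97, 11.16 and 10.92 after 6 h of dexamethasone, against 9.17, 9.38 and 9.20 with ethanol, and 11.20, 11.24 and 11.33 at 24 h, against 9.55, 9.75 and 9.76 with ethanol. The 24 h dexamethasone arrays all lay above the 6 h ones, and so did the ethanol arrays of 24 h above those of 6 h. The response was 1.77 at 6 h and 1.57 at 24 h (SE 0.09), and the dimmer probe set gave 1.84 and 1.72 (SE 0.12).

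STIM1 senses calcium inside the reticulum and opens plasma membrane calcium channels. It read 9.15, 9.35 and 9.29 after 6 h of dexamethasone, against 8.04, 8.08 and 7.88 with ethanol, and 8.90, 9.18 and 9.04 at 24 h, against 8.29, 8.15 and 8.06 with ethanol. Groups did not overlap, and the response was 1.26 at 6 h and 0.87 at 24 h (SE 0.10). The dimmer probe set of this microRNA host gave 1.37 at 6 h and 1.55 at 24 h (SE 0.23). Its change in response, 0.18, was smaller than the standard error of that change (0.33), so it does not settle the order of the times. TRAM2, a protein of the translocation channel, read 10.26, 10.22 and 10.01 after 6 h of dexamethasone, against 9.34, 9.41 and 9.18 with ethanol, and 10.28, 10.41 and 10.24 at 24 h, against 9.21, 9.42 and 9.25 with ethanol. The groups did not overlap, and its 3 probe sets gave 0.85, 1.12 and 1.13 at 6 h and 1.02, 1.17 and 1.16 at 24 h.

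Among cell surface and glycan genes (4 genes, median 1.37 at 6 h and 1.30 at 24 h), ST3GAL6 encodes a sialyltransferase that caps glycans, selectin ligands among them. It read 8.64, 8.49 and 8.71 after 6 h of dexamethasone, against 6.32, 6.25 and 6.41 with ethanol, and 8.14, 8.18 and 8.15 at 24 h, against 6.17, 6.59 and 6.41 with ethanol. All 24 h dexamethasone arrays lay below all 6 h ones, while the ethanol arrays of the times overlapped. The difference was 2.29 at 6 h and 1.77 at 24 h (SE 0.10), and 2.40 and 2.07 by the dimmer probe set (SE 0.19).

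ITGA6 encodes the integrin alpha chain of laminin receptors. It read 12.98, 12.59 and 12.46 after 6 h of dexamethasone, against 11.29, 11.05 and 10.55 with ethanol, and 12.73, 12.68 and 12.65 at 24 h, against 11.55, 11.21 and 11.25 with ethanol. Dexamethasone levels of the times overlapped and the ethanol arrays were lowest in experiment 3 at 6 h. The response was 1.72 at 6 h and 1.35 at 24 h (SE 0.19). The other ITGA6 probe set gave 2.11 and 2.23 (SE 0.20), a change of 0.12 that was smaller than its standard error (0.28). HS6ST1, which sulfates heparan chains, differed by 1.03 and 1.25, and carboxypeptidase CPD by 0.90 and 1.12. Other tested probe sets of both were further up at 24 h, as given below.

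Transport and metabolism genes (4 genes, median 1.36 at 6 h and 1.04 at 24 h) held RSAD2 and SLC22A23, whose response was smaller at 24 h. RSAD2, also called viperin, makes an antiviral nucleotide and is an interferon-stimulated gene. It read 7.64, 7.51 and 7.85 after 6 h of dexamethasone, against 6.27, 5.62 and 6.28 with ethanol, and 6.68, 6.64 and 6.36 at 24 h, against 5.53, 5.54 and 5.40 with ethanol. The change of level, 24 h minus 6 h, was -1.11 with dexamethasone and -0.56 with ethanol, and all 24 h arrays of a treatment lay below its 6 h ones. The response was 1.61 at 6 h and 1.07 at 24 h (SE 0.17), and the dimmer probe set gave 1.58 and 1.25.

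SLC22A23 belongs to the organic ion transporters. It read 7.32, 6.99 and 7.28 after 6 h of dexamethasone, against 5.67, 5.79 and 5.90 with ethanol, and 6.42, 6.47 and 6.44 at 24 h, against 4.67, 5.71 and 5.91 with ethanol. The ethanol array of experiment 1 at 24 h was more than 1 log2 unit below the other 2. All 24 h dexamethasone arrays lay below all 6 h ones, and the response was 1.41 at 6 h and 1.02 at 24 h (SE 0.25). ABCC5, an exporter of organic anions, read 9.73, 9.69 and 10.02 after 6 h of dexamethasone, against 8.13, 8.49 and 8.86 with ethanol, and 9.98, 9.76 and 10.33 at 24 h, against 8.40, 8.54 and 8.79 with ethanol. Its groups stood apart and the levels of the times overlapped, with responses of 1.32 and 1.45 (SE 0.20).

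GLUL, glutamine synthetase and a textbook glucocorticoid-induced gene, was among the brightest. It read 13.69, 13.60 and 13.68 after 6 h of dexamethasone, against 12.65, 12.87 and 12.81 with ethanol, and 13.81, 13.81 and 13.93 at 24 h, against 12.82, 12.84 and 12.89 with ethanol. The groups were tight and did not overlap, and the response was 0.88 at 6 h and 1.00 at 24 h (SE 0.08).

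In the ubiquitin group (3 genes, median 0.85 at 6 h and 0.95 at 24 h), USP20 removes ubiquitin from proteins. It read 8.07, 8.52 and 8.26 after 6 h of dexamethasone, against 6.41, 7.03 and 6.83 with ethanol, and 8.10, 8.32 and 8.08 at 24 h, against 6.73, 6.78 and 6.71 with ethanol. Levels of the times overlapped in both treatments, and the response was 1.53 and 1.42 (SE 0.16). CHFR, a ubiquitin ligase of a mitotic stress checkpoint, read 7.70, 8.13 and 7.82 after 6 h of dexamethasone, against 6.72, 7.35 and 7.04 with ethanol, and 8.03, 8.03 and 7.95 at 24 h, against 7.22, 7.16 and 7.26 with ethanol. Its groups stood apart by 0.35 at the closest pair of arrays at 6 h, and its responses were 0.85 and 0.79 (SE 0.15). UBALD2, with a ubiquitin-associated-like domain, differed by 0.85 and 0.95.

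The cytoskeletal pair held FAM13A, with a RhoGAP domain, and KATNAL1, a relative of the microtubule-severing protein katanin. FAM13A read 6.56, 6.94 and 6.92 after 6 h of dexamethasone, against 5.41, 5.49 and 5.19 with ethanol, and 7.53, 7.66 and 7.47 at 24 h, against 5.63, 6.14 and 5.76 with ethanol. KATNAL1 read 8.95, 9.10 and 8.39 after 6 h of dexamethasone, against 7.54, 7.92 and 7.04 with ethanol, and 9.52, 9.67 and 9.51 at 24 h, against 7.999, 8.26 and 8.16 with ethanol. In both genes every array of 24 h lay above every array of 6 h of the same treatment. FAM13A responses were 1.44 and 1.71 (SE 0.15), the highest rise in response among the 33 genes at 0.27. KATNAL1 responses were 1.31 and 1.43 (SE 0.22).

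SMIM3 and TMEM243 are small membrane proteins of little known function. SMIM3 read 11.62, 11.41 and 11.54 after 6 h of dexamethasone, against 8.91, 8.65 and 8.94 with ethanol, and 11.09, 11.16 and 10.96 at 24 h, against 8.97, 8.93 and 8.94 with ethanol. The ethanol arrays of the times overlapped, all 24 h dexamethasone arrays lay below all 6 h ones, and the fold change was 6.45 at 6 h and 4.37 at 24 h. Its response was 2.69 and 2.13 (SE 0.10), the deepest fall in response among the 33 genes at -0.56. TMEM243 read 10.60, 10.29 and 10.10 after 6 h of dexamethasone, against 9.71, 9.56 and 9.32 with ethanol, and 10.57, 10.49 and 10.64 at 24 h, against 9.47, 9.60 and 9.48 with ethanol. Its groups did not overlap either. With 0.80 at 6 h and 1.05 at 24 h (SE 0.13) it was the nearest inside the first threshold.

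**Figure D2:**
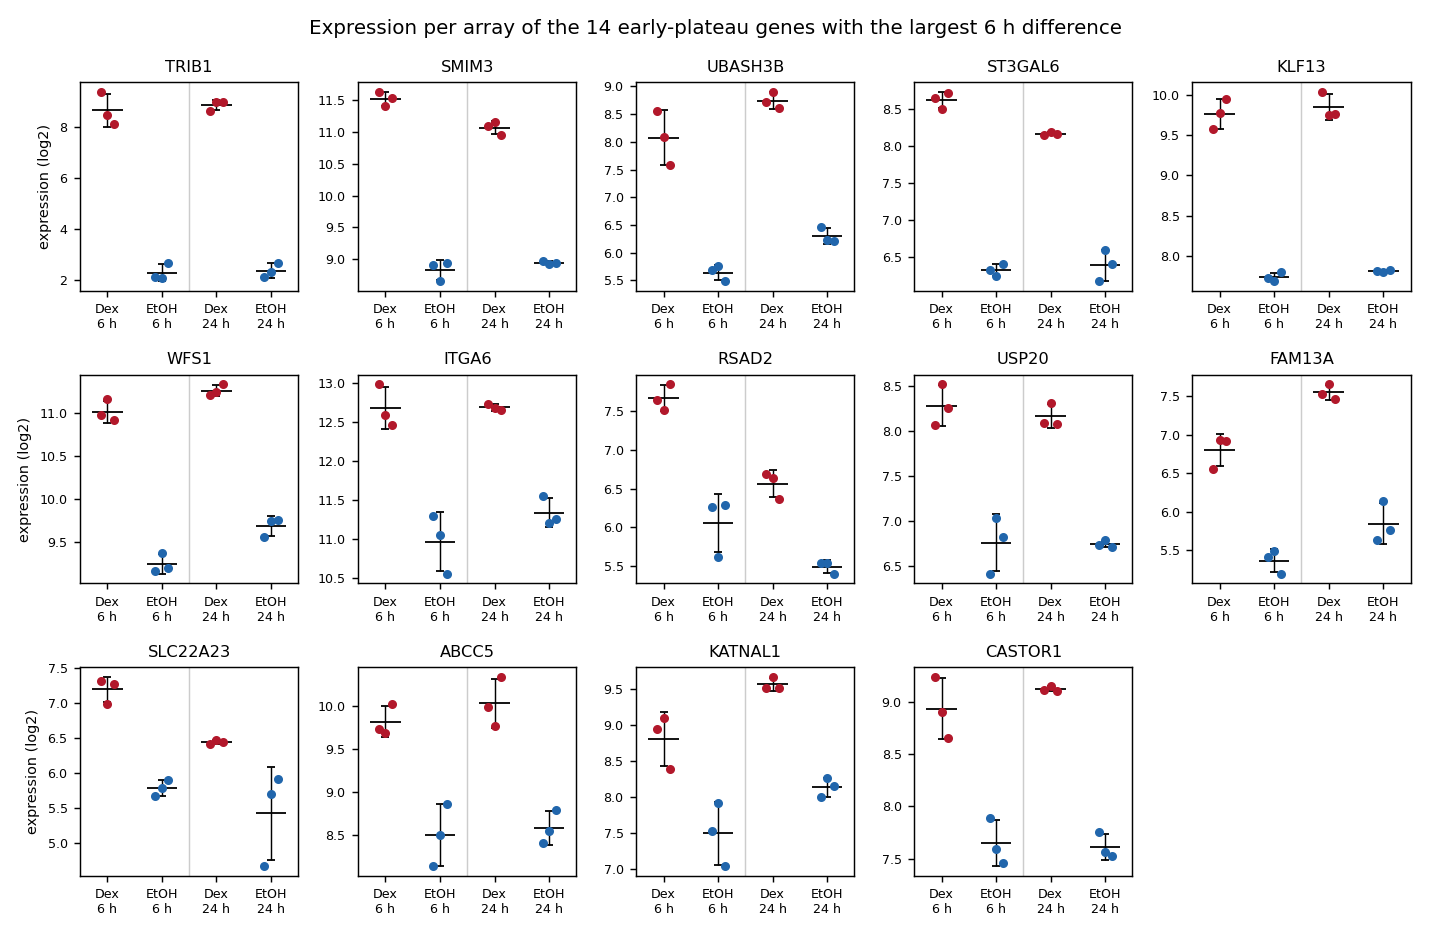
Log2 expression (vertical axes, which differ in range) on each array for the 14 early-plateau genes with the largest 6 h difference, in the order dexamethasone and ethanol at 6 h, then dexamethasone and ethanol at 24 h; points are arrays, and bars are the mean and SD of 3 arrays. Dexamethasone lies above ethanol on every array at both times, and SMIM3, ST3GAL6, RSAD2 and SLC22A23 have all 24 h dexamethasone arrays below the 6 h ones.

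The 11 unnamed probe sets had differences from 1.03 to 3.24 at 6 h and from 0.59 to 2.92 at 24 h. Of these, 244665_at read 11.10, 9.79 and 10.51 after 6 h of dexamethasone, against 8.19, 7.92 and 8.06 with ethanol, and 10.44, 10.34 and 10.49 at 24 h, against 7.96, 7.99 and 8.11 with ethanol. Its groups did not overlap, and its response was 2.41 and 2.40 (SE 0.25). Probe set 212364_at read 7.27, 8.02 and 6.21 after 6 h of dexamethasone, against 3.51, 4.79 and 3.48 with ethanol, and 8.23, 8.77 and 6.22 at 24 h, against 4.85, 6.43 and 3.17 with ethanol. Here the 24 h groups overlapped, since experiment 2 was high and experiment 3 low in both treatments, although dexamethasone was the higher within each experiment. The neighbouring identifier 212365_at behaved alike, with 2.92 and 2.64 (SE 0.89). Groups also overlapped for 1570272_at at both times and for 236931_at at 6 h, which made up the 4 probe sets without full separation.

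The levels of single probe sets moved both ways between the times. The change, 24 h minus 6 h, had a median of 0.06 with dexamethasone (-1.11 to 0.75) and -0.01 with ethanol (-0.78 to 1.01), beside medians of -0.001 and -0.01 over all tested probe sets. Dexamethasone arrays of the times overlapped in 42 probe sets (43.6% of all tested did). All 24 h dexamethasone arrays lay above all 6 h ones in 11 (27.7% of all tested), of which FAM13A, KATNAL1, UBASH3B and WFS1 are described above, and below them in 6 (28.8% of all tested), namely SMIM3, SLC22A23, CELF2, 1 of ST3GAL6 and both of RSAD2. The rule limits such changes. Ethanol arrays of the times overlapped in 45 (77.0% of all tested). The ethanol comparison also crosses the array codes, and over all tested probe sets 0.284% were called higher and 0.202% lower by limma at an adjusted p under 0.05.

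The thresholds cut through a continuum. ST3GAL5 missed the 6 h threshold with 0.796, beside TMEM243 with 0.803 inside. HS3ST4 missed the 24 h threshold with 0.489, beside the unnamed 243888_at with 0.586 inside. On the difference between the responses, the unnamed 226959_at was the last inside with 0.293 and UBASH3B probe set 228359_at the first outside with 0.315. ELL2, with a 6 h dexamethasone mean of 5.51, missed the threshold on level, which 212365_at passed with 6.42. No probe set that met the other conditions failed the requirement of a positive difference in each experiment, the smallest being 0.538 in 236931_at.

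The name "plateau" fits some of these genes better than others when all tested probe sets of a gene are read. Of the 33 genes, 16 had no other tested probe set, and 10 of those 16 had at least 2 early-plateau probe sets (CAMK1D, CASTOR1, CHFR, ITGA6, RSAD2, ST3GAL6, STIM1, TRAM2, WFS1 and ZFP36L2). Of 66 other probe sets of the 33 genes, 43 passed the filter on low values, all in the other 17 genes. These 43 were above 0 at both times, with a median difference of 0.93 at 6 h and 1.46 at 24 h. The filter favours differences above 0, since dexamethasone arrays alone can pass it, as in CELF2 probe set 1556323_at. Of these 43, 30 were further up at 24 h by more than 0.3, in 13 genes, and 23 of the 30 were also induced by at least 0.8 at 6 h. A probe set of the second kind is kept out by the rule itself, so its existence is a description. Over all tested probe sets the upper quartile of the change in response was 0.30. In 7 genes more than 50% of the tested probe sets were further up at 24 h. For those genes the plateau belongs to single probe sets and not to the gene as a whole.

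CELF2 showed the widest spread. The probe sets counted below are the tested ones. Its probe set 1554569_a_at read 7.96, 8.12 and 7.28 after 6 h of dexamethasone, against 6.60, 7.15 and 6.74 with ethanol, and 10.23, 10.24 and 10.18 at 24 h, against 6.62, 6.85 and 6.73 with ethanol. The difference was 0.95 at 6 h and 3.49 at 24 h (SE 0.20), and all 5 other tested CELF2 probe sets were further up at 24 h. The 5 of ASXL2 were too, with differences of 0.87 to 1.66 at 6 h and 1.48 to 2.45 at 24 h. UBASH3B had 3 others, with 2.15 to 2.32 at 6 h and 2.46 to 3.06 at 24 h. Both other DUSP6 probe sets and 2 of the 3 others of GLUL were further up as well. The brighter KLF13 probe set differed by 1.69 at 6 h and 2.12 at 24 h (SE 0.10), beside the flat reading above. The 3 others of CPD gave 0.90 to 0.93 at 6 h and 1.53 to 1.71 at 24 h. The brighter HS6ST1 probe set differed by 0.33 at 6 h and 1.29 at 24 h (SE 0.10), a late rise. The 2 others of LDLRAD4 gave 1.19 and 0.70 at 6 h and 2.24 and 1.20 at 24 h. Of the 4 others of PATZ1, 3 were further up at 24 h. These gave 0.52 to 0.66 at 6 h and 1.00 to 1.36 at 24 h. The brighter AIDA probe set gave 0.71 and 1.02, and the dimmer of UBALD2 0.63 and 0.99. Of the 2 others of ABCC5, 1 was further up (1.05 and 1.46) and 1 was not (0.52 and 0.13).

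In FAM13A, FGFR1, KATNAL1 and RBMS1 no other tested probe set was further up by more than 0.3. The 3 other RBMS1 probe sets differed by 0.47 to 0.57 at 6 h and 0.67 to 0.82 at 24 h, below the 6 h threshold. The other KATNAL1 probe set fell in response, with 0.45 at 24 h against 0.94 at 6 h (SE 0.12). For FGFR1 the 5 others ranged from 0.06 to 0.69 at 6 h, all below its early-plateau probe set.

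**Figure D3:**
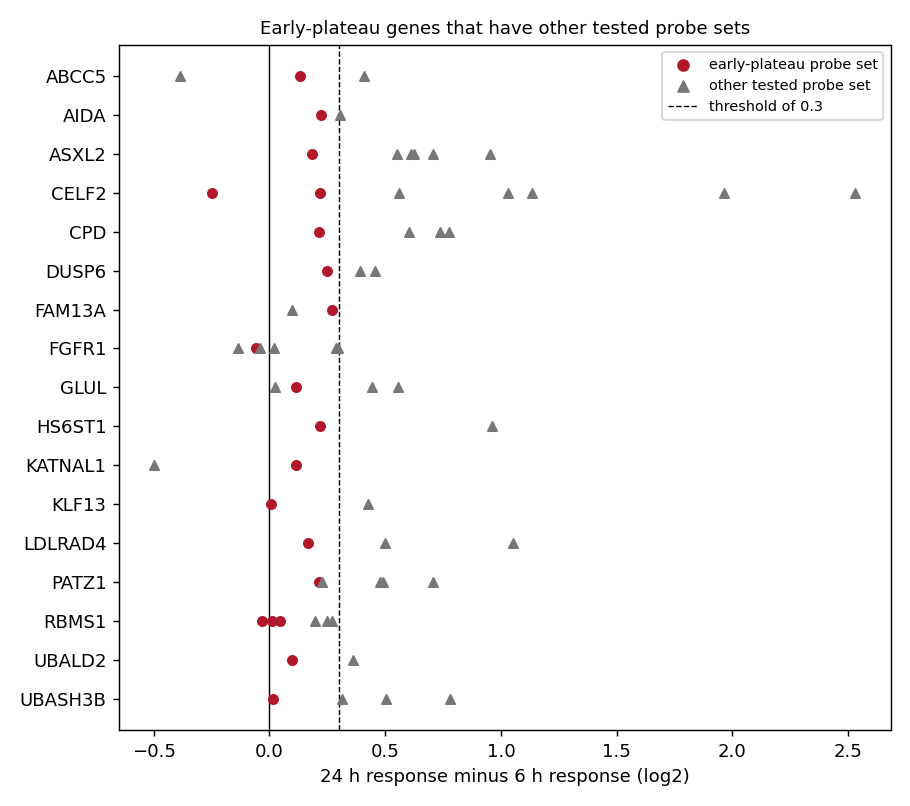
Difference between the 24 h and the 6 h response (horizontal axis, log2) for the probe sets of the 17 genes that have other tested probe sets; red circles are early-plateau probe sets, grey triangles the 43 others, and the dashed line is the threshold of 0.3. In 13 genes at least 1 triangle lies right of that line, furthest for CELF2.

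To read the pattern in arrays that had not chosen it, the rule was applied without 1 experiment and the differences were read in the experiment left out. Without experiment 1, 77 probe sets met the rule (55 of them among the 59), and in experiment 1 the median difference was 1.03 at 6 h and 1.41 at 24 h. Of the 77, 52 reached 0.8 at 6 h (1.96% of all tested probe sets did in that experiment), 74 reached 0.5 at 24 h (19.8% of all tested), and 39 had a 24 h response no more than 0.3 above the 6 h response (67.9% of all tested did). The change was within 0.3 in either direction in 32 of the 77 (44.4% of all tested), 7 were lower by more and 38 higher by more, with a median change of 0.30.

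Without experiment 3, 76 probe sets met the rule (53 among the 59), with medians in that experiment of 1.05 at 6 h and 1.15 at 24 h. There 54 reached 0.8 at 6 h (1.75% of all tested), 71 reached 0.5 at 24 h (18.2%), and 48 were at most 0.3 above the 6 h response (71.4%). The change was within 0.3 in either direction in 32 (44.7% of all tested), lower by more in 16 and higher by more in 28. Leaving out experiment 0 at 6 h with experiment 2 at 24 h gave 53 probe sets (46 among the 59), with medians of 1.28 at 6 h and 1.23 at 24 h in the arrays left out. In these, 45 reached 0.8 (3.04% of all tested), 50 reached 0.5 (15.9%) and 44 were at most 0.3 above the 6 h response (79.5%), but the times then come from different experiments. The change was within 0.3 in either direction in 30 (53.5% of all tested), lower by more in 14 and higher by more in 9. At least 0.8 at 6 h, at least 0.5 at 24 h and a 24 h response at most 0.3 above the 6 h one were met together in the arrays left out by 30 of 77, 41 of 76 and 36 of 53 probe sets. The induction at each time was thus present in most probe sets in arrays not used to choose them. The share of them whose response stayed within 0.3 was near that of all tested probe sets. Few of all tested probe sets reached 0.8 at 6 h, so that share mostly counts probe sets not induced there. It cannot show whether a flat response among induced probe sets recurred in the arrays left out, which was not tested.

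**Figure D4:**
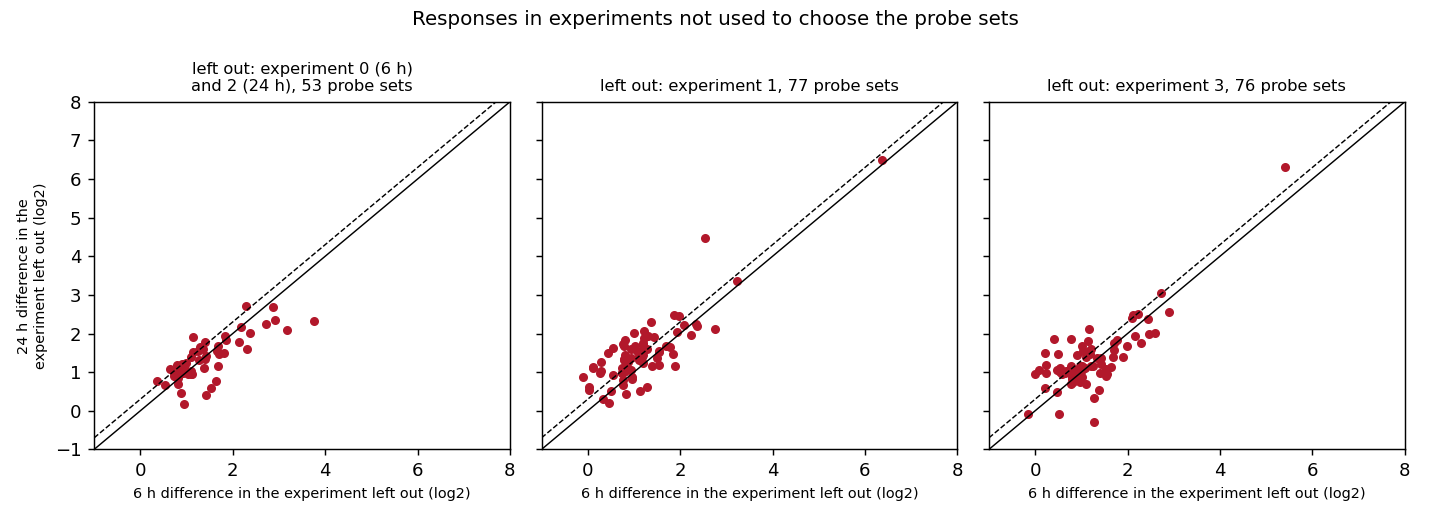
Dexamethasone minus ethanol at 24 h (vertical axis, log2) against that at 6 h (horizontal axis, log2) in the experiment left out of the choice, 1 point per probe set and 1 panel per experiment left out; the solid line is equality and the dashed line equality plus 0.3. Points lie around the solid line with the largest upward shift in the panel of experiment 1, where the median change is 0.30.

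Beside the 59 stood 211 probe sets, of 108 genes, that met the same conditions except that they were further up at 24 h. The early-plateau probe sets had about the same size of early response (median 1.28, against 1.27 for those further up) and less than that set's 24 h median of 2.62. The rule fixes the 24 h contrast between these sets. It also gives both the same 6 h threshold, so alike 6 h medians are in part built in. The upper quartiles at 6 h were 1.66 for the early-plateau probe sets and 1.92 for those further up.

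Gene lists of related function show what surrounded the early-plateau genes. The lists were chosen with earlier results of these data known. Their counts are therefore a description and no independent test against the shares of all genes. Among 24 tested glucocorticoid receptor targets 2 were early-plateau genes (GLUL and TRIB1). Of the other 22, limma called 15 higher and 1 lower at 6 h and 17 higher and 0 lower at 24 h (adjusted p under 0.05), against 2.72% higher and 3.77% lower at 6 h and 23.9% higher and 28.1% lower at 24 h of all 9947 genes tested. The median of the 22 was 1.71 at 6 h and 2.93 at 24 h, and the response differed between the times in 14 (of all tested probe sets 11.4% had a higher and 11.7% a lower response at 24 h by the same test). On the poly-A control scale the counts were 13 higher and 1 lower at 6 h, where 1.18% of all tested probe sets were called higher and 65.0% lower. At 24 h on that scale 9.57% of all tested were called higher and 43.3% lower. SOCS1, a brake on cytokine signalling, went up by 3.40 ± 0.20 at 6 h and 4.60 ± 0.20 at 24 h (SE; adjusted p for the difference of the responses 0.0103, limma). For IL7R, the interleukin-7 receptor chain, the values were 2.30 ± 0.39 at 6 h and 5.89 ± 0.39 at 24 h (adjusted p 0.00106), and for TXNIP, which restrains glucose uptake, 0.87 ± 0.15 and 2.48 ± 0.15 (adjusted p 0.000467). For DDIT4, an mTORC1 inhibitor, 2.24 ± 0.18 at 6 h and 2.74 ± 0.18 at 24 h did not differ past the threshold (adjusted p 0.2, limma, and 0.0201 with the experiment as a block). BTG1, an antiproliferative gene, gave 2.84 ± 0.22 and 3.65 ± 0.22 (adjusted p 0.0827, limma, and 0.0327 with the block).

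Brakes on signalling numbered 24 tested genes, and 4 were early-plateau genes: DUSP6, ZFP36L2, TRIB1 and UBASH3B. Of the other 20, limma called 5 higher and 1 lower at 6 h (on the poly-A control scale 5 and 9) and 10 higher and 4 lower at 24 h (8 and 6 on that scale). The response differed between the times in 14. Of all 9947 genes tested, 2.72% were called higher and 3.77% lower at 6 h, and 23.9% and 28.1% at 24 h. On the poly-A control scale the shares of all tested probe sets were 1.18% and 65.0%, then 9.57% and 43.3%. A higher response at 24 h was called in 11.4% of all tested probe sets and a lower one in 11.7%. DUSP10, a phosphatase of stress-activated kinases, was up by 1.03 ± 0.19 at 6 h and 3.40 ± 0.19 at 24 h (adjusted p for the difference 0.000189, limma), beside DUSP6 with 1.14 and 1.39. Interferon-stimulated genes numbered 13, with RSAD2 as the early-plateau gene, and of the other 12 limma called 3 higher and 0 lower at 6 h and 6 higher and 3 lower at 24 h (2 and 6, then 5 and 4, on the poly-A control scale). ISG20, an exonuclease, was up by 2.61 ± 0.22 at 6 h and 4.94 ± 0.22 at 24 h (adjusted p for the difference 0.000532, limma), beside RSAD2 with 1.61 and 1.07.

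Among 20 early response and lineage transcription factors KLF13 was the early-plateau gene. Of the other 19, limma called 5 higher and 3 lower at 6 h and 7 higher and 7 lower at 24 h, with 3 and 11, then 6 and 9, on the poly-A control scale. For both lists here, the shares of all tested genes were 2.72% higher and 3.77% lower at 6 h. At 24 h they were 23.9% and 28.1%. On the poly-A control scale those of all tested probe sets were 1.18% and 65.0%, then 9.57% and 43.3%. BCL6, a repressor, was up by 1.11 ± 0.22 at 6 h and 5.32 ± 0.22 at 24 h (adjusted p for the difference 1.2e-05, limma). The 18 lymphocyte surface receptors and ligands held no early-plateau gene, and limma called 6 higher and 2 lower at 6 h and 11 higher and 5 lower at 24 h (4 and 8, then 6 and 7, on the poly-A control scale). The experiment as a block changed that 6 h count to 7 higher and 6 lower. TGFBR2, a TGF-beta receptor chain, was up by 1.20 ± 0.10 at 6 h and 2.95 ± 0.10 at 24 h (adjusted p for the difference 2e-05, limma).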

How the data were processed

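Total RNA of CCRF-CEM-C7H2 cells was hybridized to Affymetrix HG-U133 Plus 2.0 arrays (12 arrays, 3 per group). The authors deposited log2 expression values per probe set, for which the submitters' processing notes name R 2.6 and GCRMA. The settings used are unknown here. The 62 control probe sets were read separately. Gene symbols came from the platform's annotation (41097 probe sets with 1 symbol, 1801 with several, 11777 with none). Testing was limited to the 23265 probe sets that reached a log2 of 4 on 3 or more arrays. A group-means model over all 12 arrays was fitted with limma 3.58.1 in R 4.3.3 (8 residual degrees of freedom), with Benjamini-Hochberg adjustment over the 23265 and a threshold of 0.05. No experiment block was used in it, and a fit with the block was an alternative. Same-numbered arrays deviated together (r of 0.417, 0.627 and 0.609 at 6 h, 0.286, 0.238 and 0.424 at 24 h, 0.0500 or less for other pairs), so the numbers pair the arrays. The p values measure the spread among 3 experiments of 1 line. The script was tested on simulated data.

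The early-plateau probe sets and the gene lists were chosen with earlier results of these data known. Given in full were the genes in the first 14 by 6 h difference, those with at least 2 early-plateau probe sets, those in a list and the 5 with the largest fall and the 5 with the largest rise in response. The probe set with the highest mean stood for its gene. Examples from the lists were genes past the test. Precision is limited by the number of arrays.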

Additional observations from a re-analysis of the deposited data

Results flagged for a closer look

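The added poly-A control transcripts (24 probe sets), outside the main measurement, read 7.33 with dexamethasone against 6.86 with ethanol at 6 h, a difference of 0.47, and were 0.34 higher with dexamethasone at 24 h. Hybridization controls (18 probe sets) were 0.34 higher with dexamethasone at 6 h and 0.38 higher at 24 h. The 18S ribosomal RNA controls (3 probe sets) read 9.53 with dexamethasone against 11.80 with ethanol at 6 h, a difference of -2.27, and 12.82 with dexamethasone against 12.54 with ethanol at 24 h, a difference of 0.28. The part of these shifts in the early-plateau responses was not tested beyond the scaling alternative.

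The response differed between the times for listed genes that are no early-plateau genes (limma, interaction of treatment and time). The 24 h response exceeded the 6 h response by 3.59 in IL7R, 1.61 in TXNIP, 1.20 in SOCS1, 2.37 in DUSP10, 1.75 in TGFBR2, 4.21 in BCL6 and 2.33 in ISG20. For ID2, an inhibitor of helix-loop-helix factors, it did so by 1.66 (adjusted p 0.000886, limma).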

How the results depend on the processing

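The early-plateau probe sets were 59 as chosen, 56 after median centring (55 shared), 59 after cyclic loess (57 shared) and 23 on the poly-A control scale, and between 56 and 76 when 1 array was left out. On that scale their medians were 0.81 at 6 h, 0.92 at 24 h and -0.16 for ethanol at 24 h minus ethanol at 6 h. Of their 118 single differences, 107 moved by more than the SD of that difference over the 3 experiments. With 1 array left out the medians stayed between 1.24 and 1.36 at 6 h, 1.19 and 1.31 at 24 h and -0.01 and 0.02 for ethanol. The 23 other probe sets induced early and further up became 12 on the poly-A control scale and 20 to 23 with 1 array left out, alternatives chosen after seeing the data. Of all probe sets, 1443 were called at 6 h by limma, 15407 on the poly-A control scale (275 higher and 15132 lower, against 619 and 824 on the deposited scale), 490 from the 6 h arrays alone, 3039 with the experiment as a replicate block, and 848 to 1385 with 1 array left out (955, 901, 906 and 848 without 6 h dexamethasone experiment 1 or 3, or 6 h ethanol experiment 0 or 3). At 24 h 10997 became 9303 to 11228 with 1 array left out and 13139 with the block. Response differences were called in 5380, in 3299 on the poly-A control scale, in 4217 to 5545 with 1 array left out and in 7882 with the block. The ethanol comparison called 113, 190 with the filter at a log2 of 6, 37 on the poly-A control scale and 0 to 267 with 1 array left out: 0, 267 and 22 without 6 h ethanol experiment 0, 1 or 3 (2789 at an unadjusted p under 0.05 for the 0), and 8, 2 and 21 without 24 h ethanol experiment 1, 2 or 3. Listed genes called at 6 h were 32, and 54 (20 higher, 34 lower) on the poly-A control scale, 23 to 30 with 1 array left out and 41 with the block. At 24 h 61 became 55 to 63 with 1 array left out and 66 with the block. The 6 h call of TXNIP ended on the poly-A control scale (adjusted p 0.0827, limma), that of ID2 there (0.208), after median centring (0.0549) and without any of 7 arrays, and that of BCL6 without either of 2 arrays (highest 0.0543). On the poly-A control scale the 6 h list medians changed sign for brakes on signalling (-0.35, against 0.12 on the deposited scale), surface receptors (-0.38, against 0.09), transcription factors (-0.43, against 0.04) and interferon-stimulated genes (-0.46, against 0.01), and after median centring that of interferon-stimulated genes was -0.02. Calls at 6 h turned to mostly lower on the poly-A control scale in each of the lists just named, where 65.0% of all tested probe sets were called lower. The causes were not tested. The promoter search did not depend on the arrays.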

Other observations

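The early-plateau probe sets varied more between experiments at 6 h than at 24 h. Their median SD over 3 arrays was 0.21 with dexamethasone and 0.18 with ethanol at 6 h, and 0.10 with dexamethasone and 0.12 with ethanol at 24 h. Over all tested probe sets the medians were 0.15 with dexamethasone and 0.14 with ethanol at 6 h, and 0.12 and 0.11 at 24 h. For the 211 probe sets further up at 24 h the medians were 0.23 with dexamethasone and 0.26 with ethanol at 6 h, and 0.18 with each at 24 h. The larger spread at 6 h was thus not particular to the early-plateau probe sets. These are values without a test.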
